A study of Mus musculus with 4 samples.

Results

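The Hoxa cluster genes were followed through 4 mouse neural stem cell (NSC) lines, XN4, XN1, KN1 and CN4, made in culture from epiblast stem cells of the 129/Sv strain. The members were fixed by name: the 8 protein-coding genes Hoxa2, Hoxa3, Hoxa4, Hoxa5, Hoxa6, Hoxa7, Hoxa9 and Hoxa10, and the antisense RNA Hoxaas3, which make 9 of the 27612 genes named in the tables. All 4 lines grew in medium with EGF and FGF2, each at 10 ng/ml. XN4 and XN1 also received 10 µM XAV939, a tankyrase inhibitor that lowers Wnt signalling. According to the study's methods the compound came from different suppliers for these lines, and that given to XN1 formed crystals in culture, so the dissolved dose of XN1 is not known. KN1 received no agent acting on the Wnt pathway, and CN4 received 2 µM CHIR99021, an inhibitor of GSK3 that raises Wnt signalling. Each line gave 1 single-cell library, so a culture condition and a line cannot be told apart, and no difference between lines has a replicate check. The values are therefore given without tests, with exact 95% intervals that cover counting error only. The counts are sequencing reads and not single molecules. Intervals of folds treat each read as an independent count, though 1 cell can hold several reads of a gene, so they are too narrow to that extent.

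Hox genes encode homeodomain transcription factors and lie in 4 clusters in the mouse. Within a cluster, low-numbered genes are switched on earlier and reach further forward in the embryo than high-numbered genes, so the set of Hox genes that is on marks a position along the hindbrain and the spinal cord. In the neural tube the low-numbered genes are known for their borders in the hindbrain, the middle genes for the caudal hindbrain and the neck level, and the high-numbered genes for more caudal spinal cord. Wnt, FGF and retinoic acid signals are known to act on the clusters, in part through Cdx factors, and the Hox proteins bind DNA together with Pbx and Meis cofactors.

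The cluster lies on chromosome 6 of the mouse genome (GRCm38). In the GENCODE annotation, Hoxa2 took up chr6:52162417-52164831, Hoxa5 chr6:52201754-52204587, Hoxa7 chr6:52214491-52221854, Hoxa9 chr6:52223100-52231089 and Hoxa10 chr6:52231197-52240854, all on the minus strand. The gap between Hoxa9 and Hoxa10 was 107 bases in this annotation. RefSeq ends the span of Hoxa9 at chr6:52227370, so the gap is wider there. Hoxa3 spanned 44275 bases and its introns enclosed Hoxa4, Hoxa5 and Hoxa6 on the same strand, with no shared exonic base. Intronic reads were counted in XN4, XN1 and CN4. The intron setting, annotation and pipeline version behind the KN1 table are not given in the sources used here, nor is the way reads in the genes nested within Hoxa3 were assigned, so the values of Hoxa3, Hoxa4, Hoxa5 and Hoxa6 are uncertain to that extent. Hoxaas3 ran on the plus strand and shared 586 exonic bases with Hoxa7, which is 20.4% of the exonic length of Hoxa7 and 20.3% of its own. It also shared 297 exonic bases with Hoxa3. On the minus strand, the annotated gene Gm28308 shared 267 exonic bases with Hoxa2 and 482 with Hoxa3. Whether the counting used strand is not given in the sources used here, so reads of Hoxaas3 cannot be told apart from those of Hoxa7 or Hoxa3 in the shared stretches. How reads in the exons shared with Gm28308 were assigned is not given either.

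**Figure D1:**
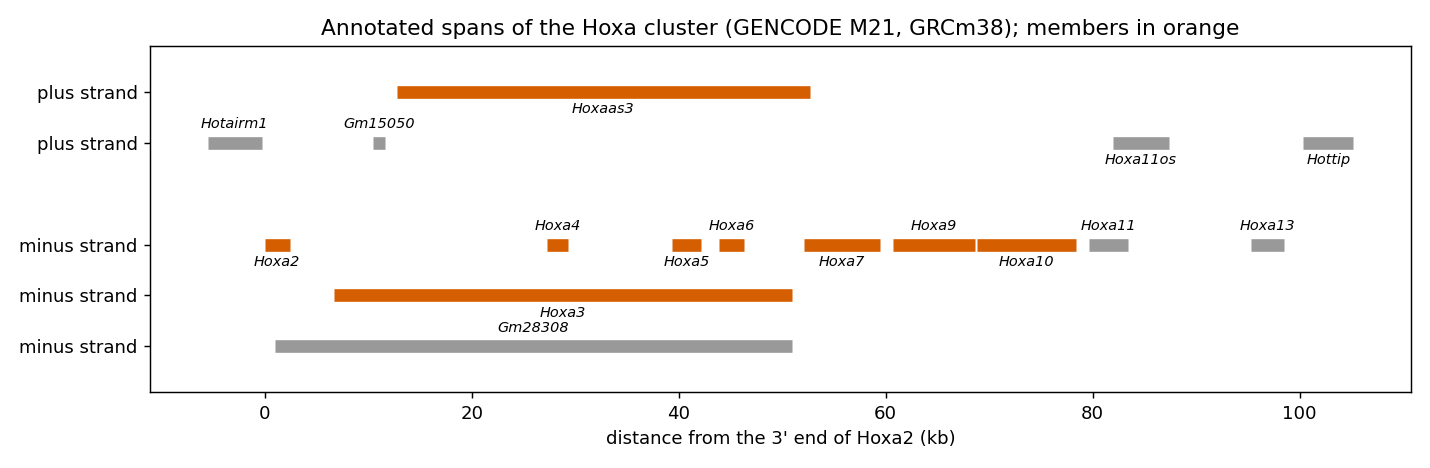
Map of the Hoxa region drawn to scale as distance in kb from the 3′ end of Hoxa2, with the members and further annotated genes of the region on their strands. The enclosure of Hoxa4, Hoxa5 and Hoxa6 by Hoxa3 and the overlap of Hoxaas3 with Hoxa7 can be seen.

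The start regions of the 4 genes on which the results turn are printed here because Hoxa5 and Hoxa7 were the members with the most reads and Hoxa9 and Hoxa10 were the pair with the highest ratio of shared cells to those expected. Each window holds 250 bases before and 50 after the annotated start (RefSeq, GRCm38.p6, minus strand), read 5′ to 3′ along the gene, with Hoxa5 at chr6:52204538-52204837, Hoxa7 at chr6:52218524-52218823, Hoxa9 at chr6:52227321-52227620, and Hoxa10 at chr6:52240805-52241104 and chr6:52234890-52235189. The windows of Hoxa7 and Hoxa9 lie inside the GENCODE spans given above, because GENCODE places the starts of these genes further upstream than RefSeq. Capitals mark AGGTCA, a motif of retinoic acid receptors, in Hoxa5 and TTTATG, a Cdx-type motif, in Hoxa7.
Hoxa5: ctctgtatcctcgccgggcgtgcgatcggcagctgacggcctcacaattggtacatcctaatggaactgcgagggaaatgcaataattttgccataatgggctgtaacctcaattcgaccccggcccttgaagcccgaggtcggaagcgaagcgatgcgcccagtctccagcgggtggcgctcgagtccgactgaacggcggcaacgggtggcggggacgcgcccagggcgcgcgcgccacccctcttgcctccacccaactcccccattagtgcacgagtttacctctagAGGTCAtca
Hoxa7: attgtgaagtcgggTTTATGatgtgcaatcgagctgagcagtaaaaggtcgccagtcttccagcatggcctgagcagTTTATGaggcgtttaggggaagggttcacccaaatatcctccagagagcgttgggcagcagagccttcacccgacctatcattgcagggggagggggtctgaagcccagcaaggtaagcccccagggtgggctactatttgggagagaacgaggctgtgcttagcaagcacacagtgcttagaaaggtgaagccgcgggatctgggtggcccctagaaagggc
Hoxa9: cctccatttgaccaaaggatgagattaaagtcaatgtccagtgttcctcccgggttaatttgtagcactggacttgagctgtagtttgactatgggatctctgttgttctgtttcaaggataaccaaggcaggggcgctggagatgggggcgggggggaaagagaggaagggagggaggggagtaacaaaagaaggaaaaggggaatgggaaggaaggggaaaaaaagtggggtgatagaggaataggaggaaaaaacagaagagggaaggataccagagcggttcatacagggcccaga
Hoxa10, first start: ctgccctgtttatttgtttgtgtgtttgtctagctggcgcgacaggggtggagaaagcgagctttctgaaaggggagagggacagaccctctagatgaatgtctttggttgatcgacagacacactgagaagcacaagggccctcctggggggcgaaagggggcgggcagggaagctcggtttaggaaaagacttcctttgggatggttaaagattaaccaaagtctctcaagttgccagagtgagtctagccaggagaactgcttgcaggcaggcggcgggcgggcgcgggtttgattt
Hoxa10, second start: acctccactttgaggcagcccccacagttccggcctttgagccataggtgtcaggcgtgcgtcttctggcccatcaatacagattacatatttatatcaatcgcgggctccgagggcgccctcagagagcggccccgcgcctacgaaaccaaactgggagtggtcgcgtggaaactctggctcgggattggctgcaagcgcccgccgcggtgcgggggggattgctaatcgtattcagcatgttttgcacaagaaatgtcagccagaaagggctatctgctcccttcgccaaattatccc

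Motifs were searched by their letters on both strands in the 8 windows of the 7 members that had a window among the start regions used (Hoxa4 and Hoxaas3 had none). TTTATG occurred at 2 places in the Hoxa7 window, with first bases at -236 and -173 from the start, and in no window of the other 6 members. It occurred in 11.9% of the 32851 mouse start regions of the same length. AGGTCA was found in the Hoxa5 window, where its first base lay at 42, and in 16.3% of all windows. The Meis motif TGACAG lay in the Hoxa2 and Hoxa3 windows and in 19.2% of all windows, and the Hox-Pbx motif TGATTNAT lay in the Hoxa2 window and in 3.22% of all windows. The TCF motifs CTTTGAT and CTTTGAA were in none of the members' windows, against 3.73% and 5.14% of all windows. These matches are letters in a window and say nothing of binding. GC content was 61.7% in the Hoxa5 window, with 29 CpG, and 49.7% in the Hoxa9 window, with 4 CpG, beside a median of 52.7% over all windows.

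Tables of all reads were available for XN4, XN1 and CN4, with 8741, 14452 and 18157 cells and medians of 12615, 5981.5 and 9173 reads per cell. Normalized tables of 3448 to 3975 cells were available for all 4 lines. KN1 stood apart in complexity: its normalized cells held a median of 833 genes at 5862 reads, against 2257 to 2824 genes in the other lines at 4637 to 7796 reads. A gene found in 10% to 30% of cells gave a median of 6.34 reads per positive cell in KN1 and 1.34 to 2.23 in the others. The library labelled XN4 went against its label. Sox2, a transcription factor of neural progenitors, was found in 0.560% of its normalized cells, against 83.9% in CN4, 62.2% in XN1 and 13.9% in KN1. Fabp7, a lipid carrier of radial glia, was found in no cell of it. The collagen gene Col3a1 was found in 97.8% of the cells of XN4 and in 0.154% to 1.23% of the others. Of 10 neural progenitor markers, 3, 8, 6 and 10 reached 10% of cells in XN4, XN1, KN1 and CN4. Of 6 connective tissue markers, 5 reached it in XN4, 1 in XN1 and 0 in KN1 and CN4, and their summed level was 7415 reads per 1000000 reads (RPM) in XN4 and 2.47 to 95.4 in the others. Pairs of libraries shared 37 to 320 cell barcodes.

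A cell with at least 1 read of a gene is called a cell in which the gene was captured. Hoxa genes were captured in most cells of CN4, in under 50% of the cells of XN1 and KN1, and in almost none of XN4. At least 1 of the 9 members was captured in 76 of 8741 cells of XN4 (0.869%, 95% interval 0.686 to 1.09), in 6694 of 14452 cells of XN1 (46.3%, 45.5 to 47.1), in 1568 of 3975 cells of KN1 (39.4%, 37.9 to 41.0) and in 15571 of 18157 cells of CN4 (85.8%, 85.2 to 86.3). The order of XN1 and KN1 turned with the read minimum. With at least 2 reads of a member required, the shares were 15.6% in XN1 and 34.3% in KN1. All KN1 values rest on the 7 members listed there, without Hoxa9 and Hoxa10. Summed over the members, the normalized tables of XN4, XN1, KN1 and CN4 held 1.49, 169, 472 and 533 RPM. By reads, then, KN1 stood close to CN4, whereas by cells it stood close to XN1.

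**Figure D2:**
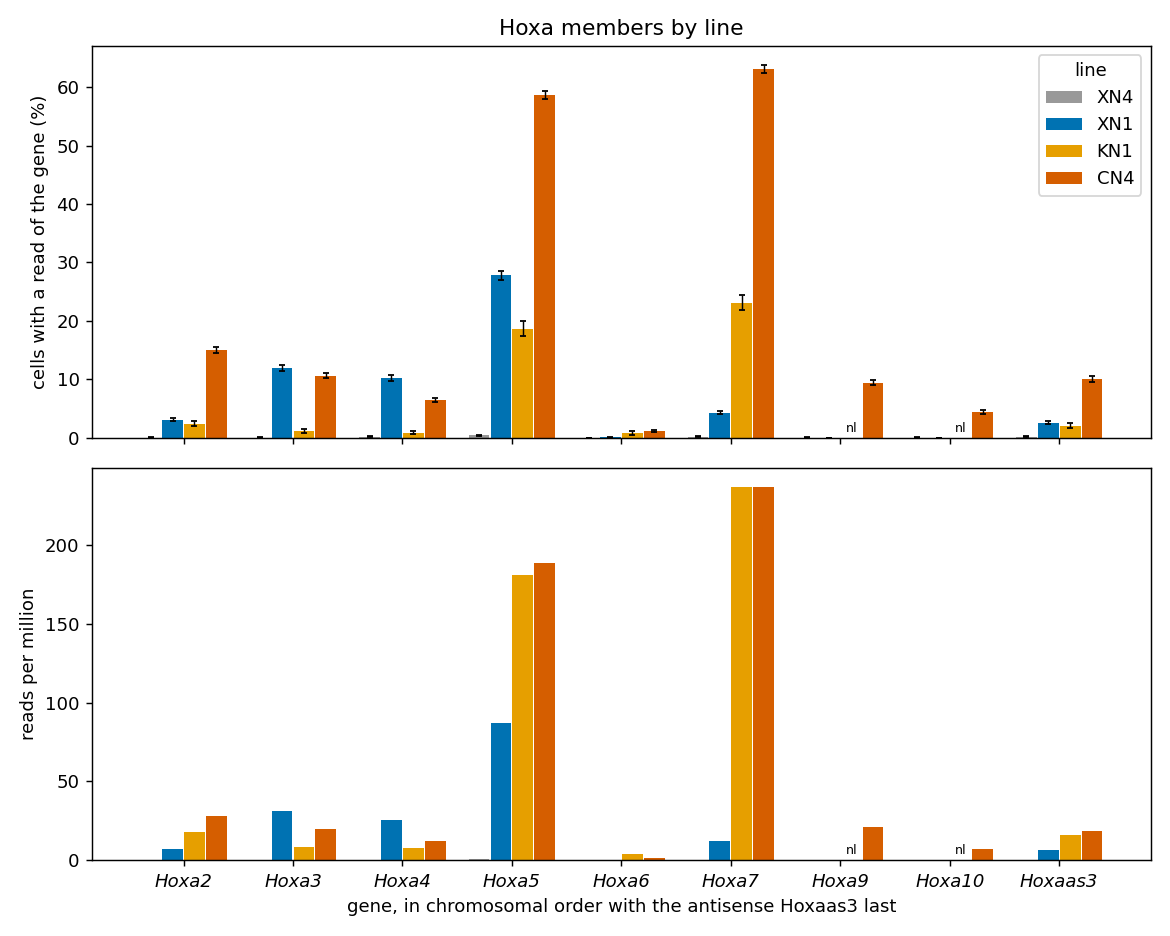
Percent of cells in which each member was captured, with 95% exact intervals, and RPM in the normalized tables on a linear axis without intervals, for the 4 lines. nl marks a gene not listed for a line. XN1 has Hoxa5 as its highest bar (27.8%), and KN1 and CN4 have Hoxa7 (23.1% and 63.1%).

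Hoxa2, known for its role in the second branchial arch and the front hindbrain segments, was captured in 0.0114% of XN4 cells, 3.09% of XN1, 2.39% of KN1 and 15.1% of CN4. The intervals of KN1 (1.94 to 2.91) and XN1 (2.81 to 3.38) overlapped. In RPM it stood at 7.21 in XN1, 18.0 in KN1 and 27.8 in CN4, so that KN1 lay between XN1 and CN4 on this scale.

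Hoxa3 and Hoxa4 were the members for which XN1 was the highest line. Hoxa3, which patterns the caudal hindbrain and the third pharyngeal pouch, was captured in 0.0343% of XN4 cells, 12% of XN1, 1.08% of KN1 and 10.6% of CN4. Hoxa4, a gene of the hindbrain to spinal cord transition, was captured in 0.126% of XN4 cells, 10.3% of XN1, 0.830% of KN1 and 6.42% of CN4. The intervals of the 4 lines did not overlap for either gene. In RPM, Hoxa3 gave 31.0, 8.31 and 19.7 in XN1, KN1 and CN4, and Hoxa4 gave 25.4, 7.76 and 12. XN1 was the highest and KN1 the lowest of these 3 lines on both scales.

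Hoxa5, a gene of the neck level that also acts in lung and brainstem development, was captured in 0.400% of XN4 cells, 27.8% of XN1, 18.7% of KN1 and 58.7% of CN4. Its levels in XN4, XN1, KN1 and CN4 were 0.867, 86.8, 181 and 188 RPM. It was the most captured member in XN4 and XN1 and the second after Hoxa7 in KN1 and CN4.

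Hoxa6, its neighbour, was the least captured member in CN4, at 1.15% of cells (1.00 to 1.32), and the lowest of the 7 listed in KN1, at 0.780% (0.530 to 1.11), with overlapping intervals. It was captured in 0.0692% of XN1 cells and in 0 of 8741 XN4 cells, which allows a share of up to 0.0343% by the limit of 3 cells and 0.0422% by the exact interval. The CN4 share is from the table of all reads and the KN1 share from the normalized table. In the normalized tables the shares were level, at 0.783% in CN4 (0.517 to 1.14) and 0.780% in KN1. By reads in these tables KN1 was higher, with 4.24 RPM against 1.44 in CN4. KN1 was also higher in captures per 1000000 captures, at 8.31 (5.65 to 11.8) against 2.83 in CN4 (1.86 to 4.11). This scale, chosen after seeing the data, is the cells positive for a gene over all gene detections of the table. The GENCODE 3′ end of Hoxa6 lies 1430 bases short of the one in RefSeq, and the assay reads 3′ ends. The part of this in the low values was not tested.

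Hoxa7, a gene of the upper trunk level, was captured in 0.160% of XN4 cells, 4.32% of XN1 (3.99 to 4.66), 23.1% of KN1 (21.8 to 24.4) and 63.1% of CN4 (62.4 to 63.8). Its levels in XN4, XN1, KN1 and CN4 were 0.265, 12.1, 237 and 237 RPM, so that XN1 lay far below KN1 and CN4.

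Hoxa9 and Hoxa10, genes of the trunk and lumbar levels, were found in CN4. Reads of Hoxa9 were present in 9.37% of CN4 cells (8.95 to 9.81), in 2 XN1 cells and in 4 XN4 cells. Those of Hoxa10 were present in 4.39% of CN4 cells (4.10 to 4.70), in 2 XN1 cells and in 2 XN4 cells. Neither gene was listed in the KN1 table, so no value is given there. In the other 3 lines, apart from ribosomal and mitochondrial genes and gene names after Zp in XN4, no gene left out of a normalized table was found in more than 9 of its cells. Further along the cluster, Hoxa11 was captured in 2 cells of XN4 and 3 of CN4, and Hoxa13 in 2 cells of XN4.

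Hoxaas3 was captured in 0.126% of XN4 cells, 2.61% of XN1, 2.01% of KN1 and 10.1% of CN4. The intervals of KN1 (1.60 to 2.50) and XN1 (2.35 to 2.88) overlapped. Its level was 6.54, 15.8 and 18.7 RPM in XN1, KN1 and CN4, which is the order of Hoxa2. At the 3′ side of the cluster, the noncoding RNA Hotairm1 stood at 40.2, 50.8 and 67.6 RPM in these lines and at 0.722 in XN4. Skap2, the next coding gene outside the cluster, stood at 97.7, 287, 237 and 315 RPM in XN4, XN1, KN1 and CN4, so it was read in XN4 where the cluster was near 0.

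The make-up of the Hoxa reads differed between lines. In XN1, Hoxa5 took 51.3% of the members' reads in the normalized table, Hoxa3 18.3%, Hoxa4 15.0% and Hoxa7 7.17%. In KN1, Hoxa7 took 50.1% and Hoxa5 38.4%, while Hoxa3 took 1.76% and Hoxa4 1.65%. In CN4, Hoxa7 took 44.4%, Hoxa5 35.4% and Hoxa9 3.92%. These shares compare reads near 3′ ends and are not corrected for length. The highest-numbered coding member captured in a cell gave the same picture: among cells with a coding member it was Hoxa5 in 58.2% and Hoxa7 in 9.56% of XN1 cells, Hoxa7 in 60.3% of KN1 cells, and in CN4 Hoxa7 in 64.0%, Hoxa9 in 8.56% and Hoxa10 in 5.18%. Hoxa9 and Hoxa10 are not listed for KN1, so neither could be the highest member there.

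XN1 over XN4 compares the lines labelled with the same dose of XAV939. All 6 members tested were at least 2-fold higher in XN1 by summed RPM, beside 14.8% of 13264 genes found in at least 1% of the cells of either line. None was 2-fold lower, beside 20.2% of genes. The 6 members passed that filter through XN1 alone, so their count had to come out this way and supports nothing. The fold was 100 for Hoxa5 (72.1 to 144) and 45.9 for Hoxa7 (25.2 to 93.1). It was 352 for Hoxa4 (120 to 1713) and 90.5 for Hoxaas3 (30.3 to 445), each on 3 reads in XN4, and 214 for Hoxa3 (98.0 to 587), on 6 reads. The order of these last genes was not stable: in the tables of all reads, XN1 and XN4 held 20.2 and 0.150 RPM of Hoxa4, 24.1 and 0.0499 of Hoxa3, and 4.84 and 0.114 of Hoxaas3. Hoxa2 had 1 read in XN4 and a ratio of 300, with an interval that starts at 52.9. The markers of the library labelled XN4 moved with this comparison, and their part was not tested.

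KN1 over XN1 compares the line without a Wnt-acting agent with a line kept in XAV939. Hoxa7 was 19.5-fold higher in KN1 (17.1 to 22.3), and Hoxa2, Hoxaas3 and Hoxa5 were 2.49-fold, 2.41-fold and 2.09-fold higher. Hoxa3 and Hoxa4 went the other way, with ratios of 0.268 (0.229 to 0.313) and 0.305 (0.259 to 0.359). Whether the KN1 table holds intronic reads bears on these ratios and was not tested. Of 6 members tested, 4 were at least 2-fold higher, beside 25.2% of 12080 genes, and 2 were at least 2-fold lower, beside 22.6%. Hoxa4, at 0.830% of KN1 cells, passed the filter through XN1 alone, where it was high, so its lower count was favoured by the filter. Hoxa5 turned with the scale: after thinning each cell to 3200 reads it was captured in 16.7% of KN1 cells and 22.0% of XN1 cells. On that scale Hoxaas3 stood at 1.56% in KN1 and 1.85% in XN1, and Hoxa2 at 2.03% and 2.05%, with overlapping intervals for both. The count depends on the scale. By captures per 1000000 captures only Hoxa7 was at least 2-fold higher, and by thinned cell shares likewise 1 member was. For these scales the share over all genes is not given here.

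CN4 over KN1 compares CHIR99021 with no Wnt-acting agent. Hoxa3 was 2.38-fold higher in CN4 (2.02 to 2.80) and Hoxa2 and Hoxa4 were both 1.54-fold higher. Hoxaas3 stood at 1.18-fold. Hoxa5 (1.04-fold, 0.998 to 1.08) and Hoxa7 (1.00-fold, 0.965 to 1.04) had intervals that hold equal levels. In KN1 the 229 reads of Hoxa3 came from 43 cells and the 4993 reads of Hoxa5 from 743 cells. The fold intervals count reads and not cells, so they are too narrow, and whether Hoxa3 passes 2-fold beyond counting error is not settled. Of 6 members tested, 1 was at least 2-fold higher, beside 21.2% of 12213 genes, and 0 were 2-fold lower, beside 21.3%. Hoxa4 passed the filter through CN4 alone. The same count was 2 by captures per 1000000 captures and 6 of 6 by thinned cell shares. The share over all genes on these scales is not given here. Thinned cells held a median of 764 genes in KN1 and 1845 in CN4, so 6 of 6 is not read as a result about the members. Whether Hoxa5 and Hoxa7 were higher in CN4 than in KN1 rests on the scale.

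CN4 over XN1 compares CHIR99021 with XAV939, in lines of 1 library each. Hoxa7 was 19.5-fold higher in CN4 (17.1 to 22.3), Hoxa2 3.85-fold, Hoxaas3 2.85-fold and Hoxa5 2.17-fold. Hoxa9 had 479 reads in CN4 and 1 in XN1, a ratio of 402 with an interval from 71.9. Hoxa10 had 168 reads in CN4 and 0 in XN1, and the exact interval of its ratio starts at 37.8. Hoxa4 was lower in CN4, at a ratio of 0.471, and Hoxa3 stood at 0.637. Of 8 members tested, 6 were at least 2-fold higher, beside 9.55% of 12518 genes, and 1 was 2-fold lower, beside 9.62%. Hoxa5 fell short of 2-fold on the other scales, at 195 against 123 captures per 1000000 captures and at 38.6% against 22.0% of thinned cells. Hoxa9 and Hoxa10 passed the filter through CN4 alone. The comparisons share libraries, and their folds are not independent of each other.

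**Figure D3:**
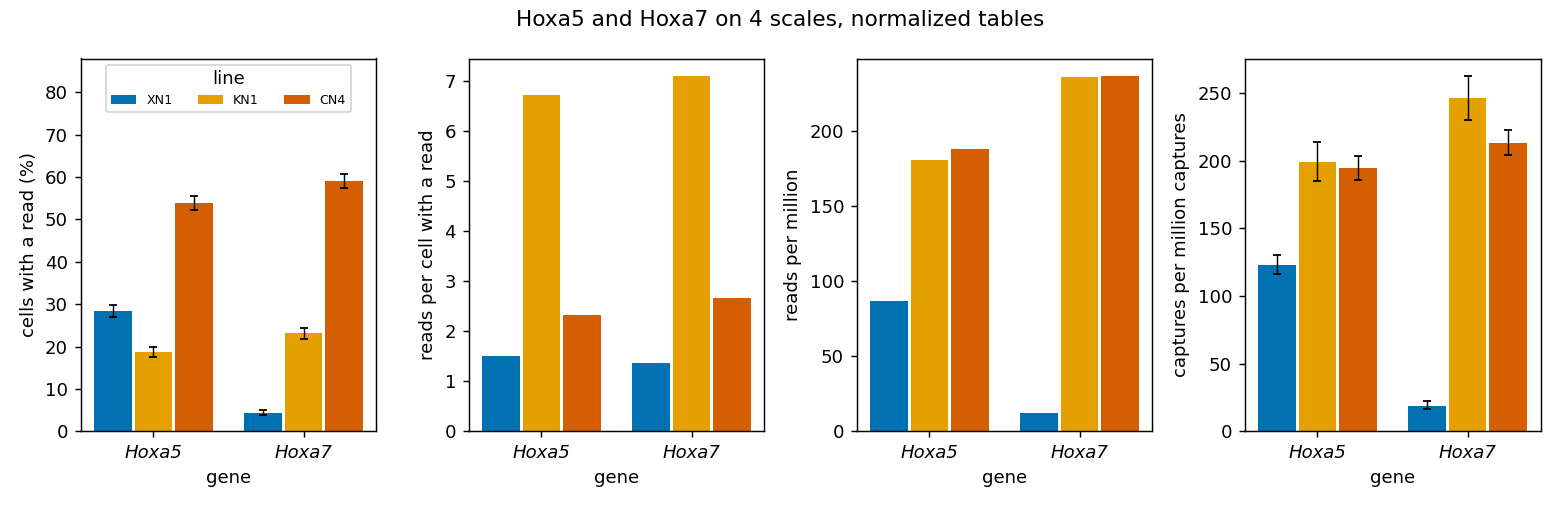
Hoxa5 and Hoxa7 in the normalized tables of XN1, KN1 and CN4 on 4 scales: percent of cells, reads per positive cell, RPM, and captures per 1000000 captures. Bars on the first and last scale are 95% exact intervals. KN1 lies far below CN4 in percent of cells (23.1% and 59.1% for Hoxa7) and level with it in RPM (237 and 237).

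The 4 scales for Hoxa5 and Hoxa7 place KN1 differently. In the normalized tables Hoxa7 was captured in 4.38% of XN1, 23.1% of KN1 and 59.1% of CN4 cells, and Hoxa5 in 28.3%, 18.7% and 53.9%. A positive KN1 cell held 7.10 reads of Hoxa7 on average, against 1.37 in XN1 and 2.67 in CN4. For Hoxa5 the means were 6.72, 1.51 and 2.33. Per 1000000 captures, Hoxa7 gave 246 in KN1 (231 to 263), 213 in CN4 (204 to 223) and 19 in XN1, and Hoxa5 gave 199 in KN1 (185 to 214), 195 in CN4 (186 to 204) and 123 in XN1. On this scale KN1 lay above CN4 for Hoxa7, and their intervals overlapped for Hoxa5. After thinning every cell to 3200 reads, which left out 290 to 776 cells a line, Hoxa7 was captured in 3.20%, 20.3% and 42.2% of XN1, KN1 and CN4 cells. The median number of genes per thinned cell was 764 in KN1 and 1649.5 to 1845 in the others, so thinning did not bring the libraries to the same complexity.

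Within a line, the share of positive cells rose more with depth than the level did. From the quartile of CN4 cells with the fewest reads to the quartile with the most, capture of Hoxa7 went from 42.1% to 82.6% and of Hoxa5 from 37.3% to 77.7%. In RPM the same quartiles of CN4 held 162 and 199 of Hoxa7. In XN1, Hoxa5 went from 15.0% to 41.9% of cells at 58.5 and 69.2 RPM. In KN1, Hoxa7 went from 12.9% to 38.2% at 291 and 231 RPM. A cell without a read of a member is therefore not shown to lack its RNA.

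Single cells of CN4 held several members at once. At least 2 members were captured in 57.7% of CN4 cells, 11.8% of XN1 cells, 8.63% of KN1 cells and 0.0343% of XN4 cells. At least 4 were captured in 1452 CN4 cells (8%) and in 27 XN1 cells. The most members in a cell was 7, in 9 CN4 cells, against 5 in XN1, 4 in KN1 and 3 in XN4. These shares are lower at fewer reads per cell, and KN1 is read from its normalized table, which does not list Hoxa9 and Hoxa10. With every normalized cell thinned to 3200 reads, at least 2 members were captured in 31.3% of CN4 cells, 6.58% of XN1 cells, 6.01% of KN1 cells and 0 XN4 cells, and at least 4 in 0.887% of CN4 cells and 0 XN1 cells.

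**Figure D4:**
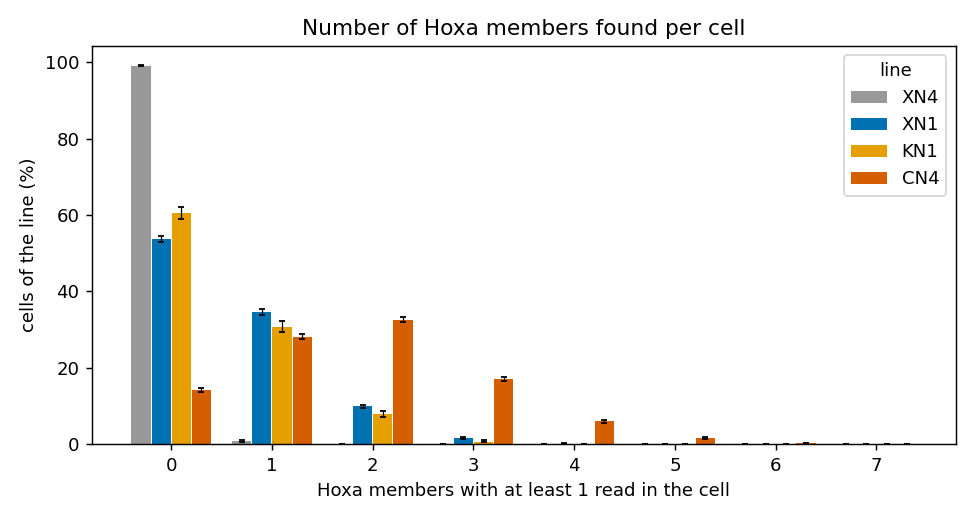
Percent of cells by the number of Hoxa members captured in them, for the 4 lines, with 95% exact intervals. CN4 has 57.7% of its cells at 2 members or more, and XN1 and KN1 have 11.8% and 8.63%.

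To see whether members occurred in the same cells beyond what depth gives, the cells with both genes of a pair were counted and divided by the number expected if the genes were independent within 20 strata of total reads. Most pairs lay near 1. In XN1, 13 pairs could be counted and the median ratio was 1.05; Hoxa2 with Hoxa3 lay above 1, at 1.49 (1.21 to 1.81), and the other 12 intervals held 1. Among 66791 pairs of a member with a gene that was no member, counted after seeing the data, 2.34% of intervals lay above 1 and the median was 1.01. For Hoxa2 and Hoxa3 the shares above 1 were 3.27% and 4.57%. In KN1, 5 pairs gave a median of 1.13, and Hoxa5 with Hoxa7 stood at 1.13 (0.991 to 1.29), beside 0.997% of intervals above 1 over 21266 pairs with other genes and a median of 1.02. In CN4, 34 pairs gave a median of 1.05, with 9 intervals above 1, beside 1.67% of 113818 pairs with other genes, whose median was 1.00. Hoxa5 with Hoxa7 stood at 1.06 there (1.03 to 1.08), where 1.49 was the highest value possible. Hoxa2 with Hoxa3, which lay above 1 in XN1, stood at 1.06 in CN4 with an interval that held 1 (0.958 to 1.18).

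Hoxa9 and Hoxa10 in CN4 were the exception. Both were captured in 382 cells where 90.7 were expected, a ratio of 4.21 (3.80 to 4.66) out of a highest possible 8.80. Of the 798 cells with Hoxa10, 47.9% also held Hoxa9, against 7.60% of the cells without Hoxa10. Of the 1702 cells with Hoxa9, 22.4% held Hoxa10, against 2.53% of those without. The next pairs with intervals above 1 were Hoxa2 with Hoxa4 at 1.21 and Hoxa3 with Hoxa4 at 1.17, and the highest ratio of a member with any other gene in CN4 was 2.19. The genes are neighbours on the same strand, 107 bases apart in GENCODE and further apart in RefSeq. How reads near this gap were assigned was not tested.

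The pair was looked at in more ways, chosen after seeing the data. With at least 2 reads of each gene required, the ratio was 5.47 (4.42 to 6.69), on 17.2 expected cells. In the 4 quartiles of total reads it was 5.45, 4.31, 5.23 and 3.69, on 4.22, 14.6, 20.1 and 51.8 expected cells. Some of these lie under the minimum of 20 expected cells set for pairs. Hoxc8, a trunk-level gene of another cluster, split the CN4 cells unevenly. Hoxa9 was captured in 15.3% of the 8691 cells with Hoxc8 and in 3.91% of the 9466 cells without, and Hoxa10 in 7.47% and 1.57%. Within the cells with Hoxc8 the ratio of Hoxa9 with Hoxa10 was 2.88 (2.58 to 3.22), and within those without it was 10.2 (7.84 to 13). The latter rests on 6.40 expected cells, against 110 with Hoxc8. Both genes were rarer without Hoxc8, which leaves room for a higher ratio, so these values are not compared. With strata of Hoxc8 and total reads together, the ratio over all cells was 3.29 (2.96 to 3.63).

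**Figure D5:**
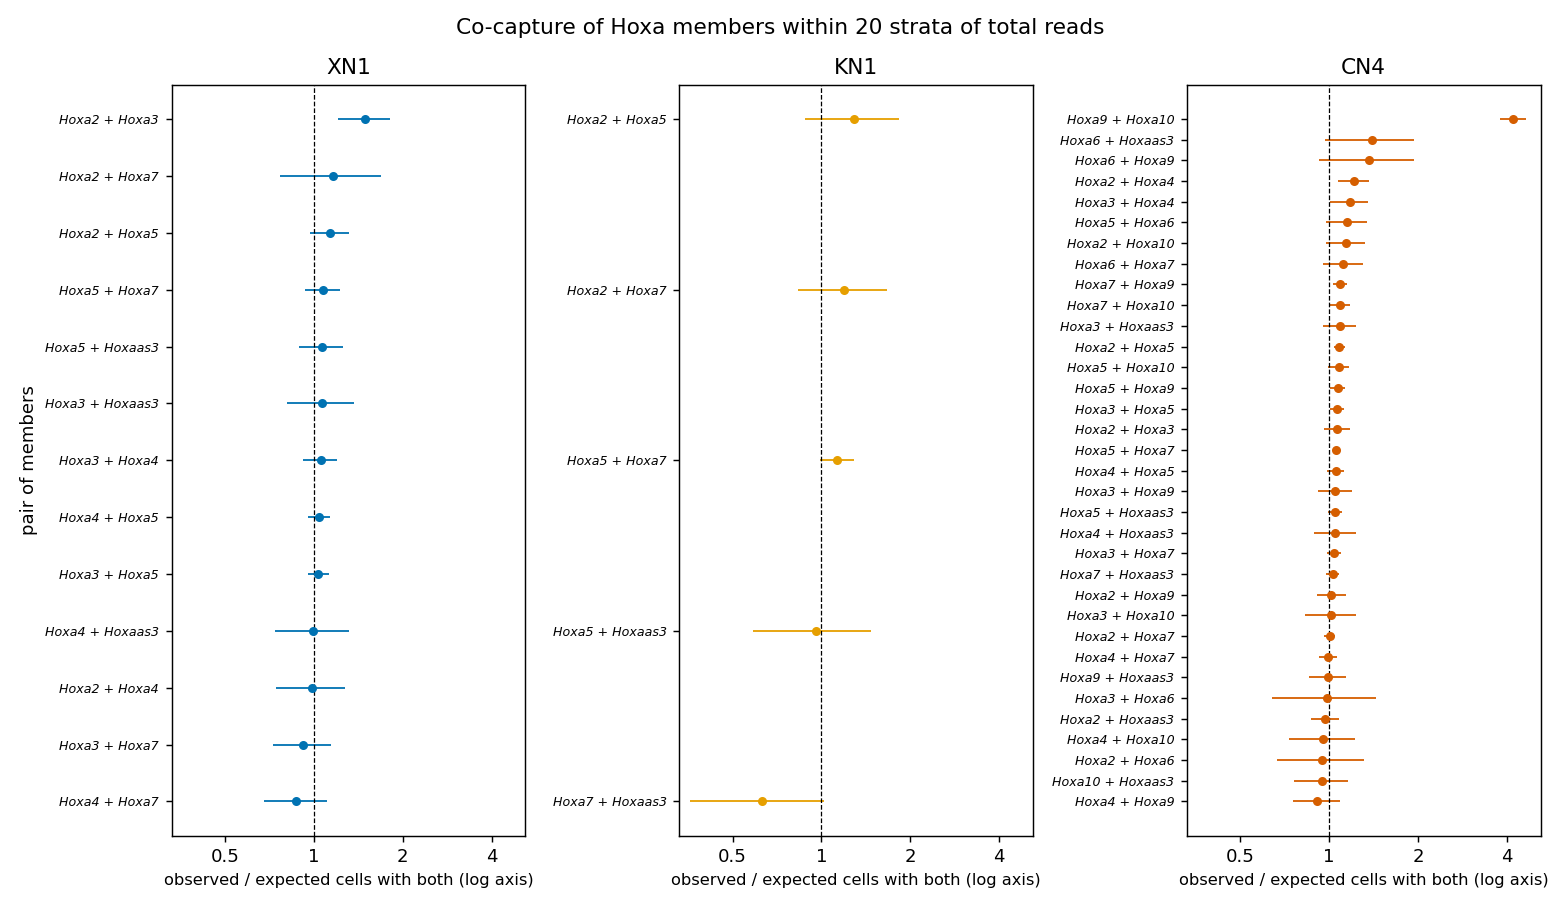
Ratio of observed to expected cells holding both genes for each pair of members in XN1, KN1 and CN4, with 95% exact Poisson intervals, on a log axis with a line at 1. Hoxa9 with Hoxa10 in CN4 stands at 4.21, and the other pairs lie between 0.629 and 1.49.

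Pairs of members with other Hox genes were also counted after seeing the data. The ratios of Hoxa9 and Hoxa10 were highest with Hoxc9 and Hoxc8. Hoxa9 gave 1.74 with Hoxc9 (1.58 to 1.92), 1.49 with Hoxc8, 1.37 with Hoxc6, 1.32 with Hoxc5 and 0.870 with Hoxc4 (0.770 to 0.979). Hoxa10 gave 2.19 with Hoxc9 (1.92 to 2.48), 1.52 with Hoxc8, 1.36 with Hoxc6 and 1.39 with Hoxc5. Hoxa7 gave 1.11 with both Hoxc6 and Hoxc8, and Hoxa5 had no Hoxc interval off 1 over 6 pairs. With the 8 Hoxb genes counted, Hoxa9 gave ratios of 0.995 to 1.20, with 6 intervals above 1, and Hoxa5 gave 1.03 to 1.07, with 7 above 1. Over all genes that were no members, 3.65% of intervals lay above 1 for Hoxa9 and 1.09% for Hoxa5. En1, a homeodomain gene of the midbrain border and of spinal interneurons, gave 1.28 with Hoxa9 and 1.31 with Hoxa10. In XN1 the 12 pairs of members with the anterior genes Otx2 and En2, which were captured in 10.1% and 18.5% of its cells, gave ratios of 0.918 to 1.10 whose intervals all held 1. Over all XN1 pairs of a member with a gene that was no member, 2.34% of intervals lay above 1. The 12 pairs are near that share, so they are not read as a result about these genes.

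Over all genes captured in at least 5% of CN4 cells, Hoxa7 was the gene whose capture went most with that of Hoxa5, first of 9976, at a phi of 0.107 within strata of total reads. For Hoxa7 the leading genes were Hoxc8 (0.164), Hoxb9 (0.146) and Hoxb8 (0.137), with Hoxa5 the fourth. For Hoxa9 they were Hoxc8 (0.170) and Hoxc9 (0.0978). Hox genes did not lead for every member: for Hoxa2 in CN4 the first gene was Ccna2 (0.0609), with Hoxa5 at place 5. In KN1, Hoxa7 stood at rank 59 of 5585 for Hoxa5, at a phi of 0.0417. The first genes there were Numa1 for Hoxa5 (0.0648) and Cox5a for Hoxa7 (0.0699). In XN1, where Hoxa3, Hoxa4 and Hoxa5 reached 5% of cells, these 3 stood at ranks 2133 to 2652 of 9190 for each other. The first genes there were Mki67 for Hoxa3 (0.0800), Plk1 for Hoxa4 (0.0432) and Vdac2 for Hoxa5 (0.0374). Hotairm1, at the 3′ side of the cluster, stood at rank 4 for Hoxa5 (0.0346), 402 for Hoxa4 and 5028 for Hoxa3. Mki67 is among the G2-M genes used below. The cells of a library share its preparation and its depth, and phi values this small in sparse reads are given as a description.

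Cells were called G2-M by reads of at least 2 of Hmgb2, Mki67 and Top2a in cells thinned to 3200 reads. The rule called 2014 of 3158 cells in CN4, 1027 of 3396 in KN1 and 920 of 3129 in XN1. The call rests on these genes alone, and whether all such cells were in G2 or M phase was not tested. In KN1, Hoxa7 was captured in 24.4% of 1027 such cells and in 18.6% of 2369 others, a difference of 5.87 points (2.81 to 8.93), and Hoxa5 differed by 5.80 points (2.93 to 8.66). The cells called G2-M also held more genes, with medians of 932 against 718 in KN1, 1863 against 1816 in CN4 and 1864 against 1788 in XN1. In CN4, Hoxa5 differed by 3.97 points (0.457 to 7.48), Hoxa2 by 2.39 (0.571 to 4.20) and Hoxa9 by 1.72 (0.276 to 3.16), while the interval for Hoxa7 held 0 (3.14, -0.435 to 6.71). In XN1, Hoxa3 differed by 3.52 points (1.24 to 5.79) and Hoxa4 by 2.37 (0.244 to 4.49), and the interval for Hoxa5 held 0 (1.34, -1.87 to 4.55). For all other members with a value in KN1, CN4 and XN1 the interval held 0. The share of all genes with such a difference is not given here, so these differences are not read as a result about the members. The sizes rest on the thinning: without it the differences in CN4 were 9.46 points for Hoxa5 and 10.3 for Hoxa7, and in KN1 9.84 and 10.2.

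In the library labelled XN4, the 76 cells with a member held 149 reads of them. Col3a1 was captured in all 76, Sox2 in 1 (1.32%, against 0.554% of the other cells) and Fabp7 in 0. Of these cells, 5 carried a barcode that another library also held, beside 337 of all 8741 cells (3.86%). They were deep cells, with a median of 21825 reads against 12536. The cells with Hoxa reads in XN4 thus carried Col3a1 like the rest of their library.

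The other clusters, set beside the Hoxa genes, differed in which lines they were read in. The 8 coding Hoxa members summed to 1.42, 163, 456 and 514 RPM in XN4, XN1, KN1 and CN4. The Hoxb genes summed to 0.481, 0.675, 486 and 1198, the Hoxc genes to 0.120, 0.208, 2.32 and 458, and the Hoxd genes to 44.1, 0.0519, 27.4 and 61.8. In XN1, Hoxa reads were therefore the bulk of the reads from the 4 clusters. The sums count an unlisted gene as 0. In KN1 they cover 6 of 8 Hoxa, 8 of 10 Hoxb, 1 of 9 Hoxc and 2 of 9 Hoxd genes. On a list of 29 Hox regulators and cofactors, 21 were measured in KN1 over XN1, with 9 at least 2-fold higher and 2 lower, beside 25.2% and 22.6% of all genes. In CN4 over XN1, 6 of 22 were higher and 1 lower, beside 9.55% and 9.62%. In CN4 over KN1, 2 of 21 were higher and 7 lower, beside 21.2% and 21.3%, and in XN1 over XN4, 1 of 23 was higher and 12 lower, beside 14.8% and 20.2%. The cofactor Meis2 stood at 27.9, 28.3, 602 and 126 RPM in these lines. Ezh2, the methyltransferase of Polycomb repressive complex 2, stood at 149, 189, 412 and 352.

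The genes whose levels over the 4 lines were most like a member, by the distance between their shares of RPM (0 for the same profile) among 10673 genes, differed between members. Hoxa7 was nearest to Syt7 (0.0214), Hoxb4 (0.0271) and Hoxb3 (0.0280). Hoxa5 was nearest to Fam81a (0.0283), Hoxa3 to Sall1 (0.0273), Hoxa4 to Slain1 (0.0146), Hoxa2 to Smpdl3a (0.0205) and Hoxaas3 to Elovl2 (0.0112). The likeness rests on 4 values a gene, each from 1 library.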

How the data were processed

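Cells of each line were captured on BD Rhapsody beads by their polyA tails and sequenced, with 1 library per line. The deposited tables of all reads (XN4, XN1, CN4) hold counts: whole reads per gene and cell, not molecules, made by the authors with the BD Rhapsody WTA Analysis Pipeline 1.12.1 on GRCm38 and GENCODE M19, intronic reads included. The deposited normalized tables hold, per gene and cell, the natural log of 1 plus 10000 times the share of the cell's reads, made by the authors (Seurat 4.3.0 is named in the submitters' processing notes) after filters on cells and with ribosomal and mitochondrial genes left out. The tables of all reads were used for capture in XN4, XN1 and CN4, and the normalized table for KN1. For levels, the normalized values of all 4 lines were turned back into whole reads (100% of values within 0.01 of a whole number). Where a normalized table did not list a member, its reads in the same cells were taken from the table of all reads.

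Binomial intervals are Clopper-Pearson and counts have exact Poisson intervals, at 95%. Folds were counted past 2-fold among genes in at least 1% of cells of either line, with a floor of 3 reads per library. Thinning drew 3200 reads per cell. Co-capture used 20 strata of total reads and pairs with at least 20 expected cells, and the same counts of the members with all other genes gave the background. The scripts were tested on simulated data. Doublets were not called. Named genes were all 9 members, other genes of the region, listed regulators and paralogs, and the 3 most alike genes per member, of which the text gives the nearest. Members and lists were chosen with earlier results of these data known. Gene positions were from GENCODE M21 and start regions from RefSeq. Python 3.11.15, numpy 2.4.6, scipy 1.17.1, pandas 2.3.3 and matplotlib 3.10.9 were used.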

Additional observations from a re-analysis of the deposited data

How the results depend on the processing

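No paired analysis was possible because each line is 1 library, and no replicate could be left out. With at least 2 reads required, the share of cells with a member in XN4, XN1, KN1 and CN4 was 0.366%, 15.6%, 34.3% and 63.4%; after thinning it was 0.355%, 37.7%, 36.6% and 70.9%. Without the 5% of cells with the most reads it was 85.1% in CN4, 44.6% in XN1 and 37.6% in KN1, and in the normalized cells of CN4 it was 83.8%. At a 4-fold limit, 1 member was higher in KN1 over XN1, 0 in CN4 over KN1 and 3 in CN4 over XN1. By thinned cell shares 1 was higher in KN1 over XN1 and 6 in CN4 over KN1, and by captures per 1000000 captures, chosen after seeing the data, 1 and 2. With genes in at least 5% of cells, 3 members were higher in XN1 over XN4 and 2 in KN1 over XN1. The 3 in XN1 over XN4 passed that filter through XN1 alone, so their count had to come out this way and supports nothing. In KN1 over XN1, Hoxa7 passed it through KN1 alone. At 4-fold, Hoxa9 and Hoxa10 entered CN4 over XN1 through CN4 alone. The share over all genes is not given for any of these counts. Median co-capture ratios without strata were 1.36 in KN1, 1.27 in XN1 and 1.21 in CN4; in CN4 the median was 1.07 with 5 strata and 1.115 with at least 2 reads of each gene. Without thinning, the G2-M differences were 1.68 points for Hoxa7 in XN1, 9.84 for Hoxa5 and 10.2 for Hoxa7 in KN1, and 9.46 and 10.3 for Hoxa5 and Hoxa7 in CN4. The causes of these changes were not tested, beyond the fewer cells, reads or genes that each setting keeps. The order of XN1 and KN1 in the share of cells with a member turned at 2 reads, Hoxa5 was higher in KN1 than in XN1 by reads and lower by thinned cell shares, and the G2-M difference of Hoxa7 in XN1, -0.06 points after thinning with an interval that held 0, changed sign without it. Counting intervals leave out variation between cultures, and 1 library per line limits every comparison.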
